A study of Oreochromis niloticus with 12 samples.

Results

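Testis was compared with ovary in control Nile tilapia (Oreochromis niloticus), a farmed cichlid fish with separate sexes. The comparison takes 6 of the 12 libraries of the series, 3 labelled control testis and 3 labelled control ovary, chosen by their labels alone, and covers the 22283 genes of the deposited table, of which 14719 were tested. The other 6 libraries are testis and ovary of fish in which SF1 (nr5a1, a nuclear receptor that activates steroid synthesis genes) was suppressed by antisense RNA fragments taken up by the eggs before fertilisation. Control eggs received, by the protocols in the labels, either the transfection reagent with ultrapure water or the reagent with a blank plasmid, and the labels do not say which of these each library stands for. All fish were reared over a culture cycle of 150 days, the first 30 of them in a small circulating system, and the control gonads are described as tissue of sexual maturity. The labels give the genotype only as control and name no strain, and they do not say whether a library is 1 fish or a pool of fish, so p-values measure only the spread between these libraries, which may be technical.

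A fish testis holds germ cells at every step from stem cell to flagellated sperm, grouped in cysts that Sertoli cells enclose, with steroid-making Leydig cells between the tubules. A fish ovary holds growing oocytes, very large cells that store maternal RNA, yolk and lipid, each inside a follicle of granulosa and theca cells that make oestrogen by way of aromatase. In tilapia the choice between the gonads is known to rest on opposed programmes, with dmrt1, amh and gsdf on the testis side and foxl2 and aromatase on the ovary side. A gonad is a mixture of cells, so in these bulk libraries fewer cells of a type and less RNA per cell cannot be told apart.

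The libraries held 36.8 to 51.2 M counts in testis and 49.5 to 57.2 M in ovary. Testis libraries showed 14092 to 14589 genes at an FPKM (fragments scaled by transcript length and library total, computed by the authors) of at least 1, and ovary libraries 12185 to 12495. The first principal component (95.5% of the variance) separated the gonads, and the second (1.67%) set ovary 1, at 43.3, apart from ovary 2 and 3, at -24.8 and -19.7. Replicates differed by a biological coefficient of variation of 11.8 to 17.6% in testis and 13.2 to 17.2% in ovary. In ovary 1, 156 of 12255 genes with signal lay below the other replicates by more than 2-fold, and these included apoeb and fabp11a, described below.

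Most genes differed between the gonads. Of the 14719 genes tested, 6487 (44.1%) were higher in testis and 6222 (42.3%) were lower, together 86.3%, while 2010 did not pass the test (edgeR's quasi-likelihood test, Benjamini-Hochberg adjusted p under 0.05). The median absolute log2 change of the genes that passed was 1.70. A change of at least 4-fold was reached by 3097 genes (21%) that were higher in testis and by 2232 (15.2%) that were lower, and for 12954 genes (88%) the 3 testis values lay all above or all below the 3 ovary values. The genes at least 4-fold higher in testis held 24.4 to 24.8% of all counts in testis and 2.07 to 2.26% in ovary. Those at least 4-fold lower in testis held 3.29 to 3.5% of the counts in testis and 33.5 to 34.5% in ovary, so a smaller number of genes took a larger share of the RNA on the ovary side.

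A gene was tested when its FPKM reached 1 in at least 3 of the 6 libraries. Of these, 2151 genes reached it in testis with no ovary library at 1, and 573 in ovary with no testis library at 1. In the lists, a gene qualifies through 1 gonad when all 3 libraries of that gonad reached 1 and not all 3 of the other did. Such genes are more likely to differ because of how they were chosen. The count of each list below is therefore followed by the count among its genes at an FPKM of at least 1 in all 6 libraries. Among those 10909 genes, 3877 (35.5%) were higher and 5309 (48.7%) lower in testis, with a median log2 change of -0.27, against 0.05 over all genes tested. These shares, and 44.1% and 42.3% over all genes tested, are the background for each list below. A list with members on each side in shares near these does not differ in this from genes at large. Changes are log2 of testis over ovary with the standard error of the fit, after TMM scaling. They lie below the log2 ratio of the FPKM by about 0.19, the shift that this scaling makes against scaling by total count. Unless an overlap is stated, the 3 testis values of a named gene lay all above or all below its 3 ovary values.

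**Figure D1:**
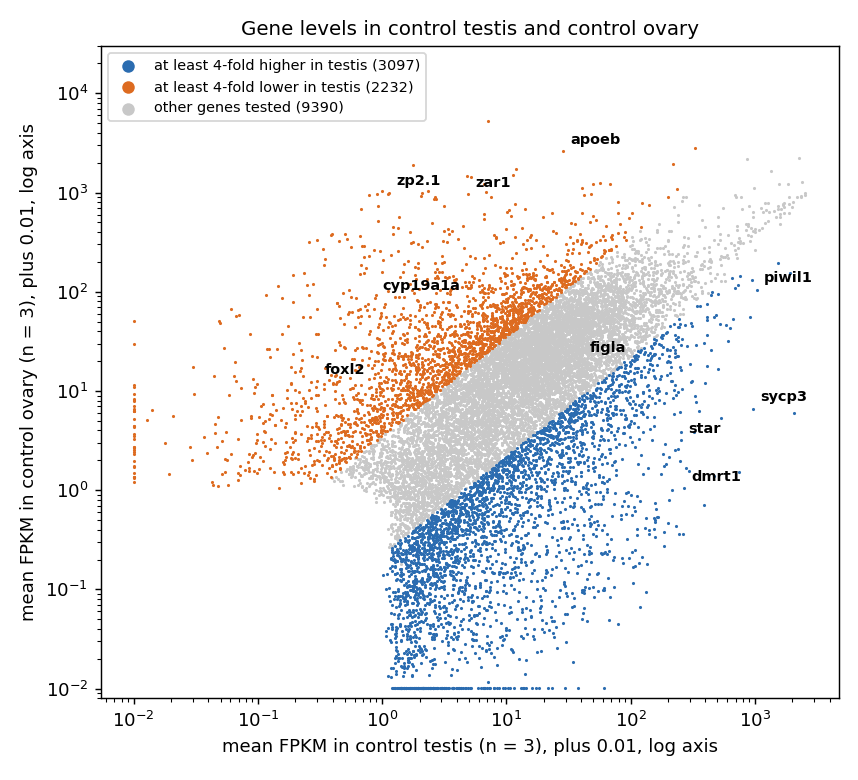
Mean FPKM of each of the 14719 genes tested in control testis (horizontal) and control ovary (vertical), 3 libraries each, on log axes after adding 0.01, with genes at least 4-fold higher in testis in blue (3097) and those at least 4-fold lower in orange (2232). The blue cloud reaches to a mean of 0 in ovary, where 159 tested genes had no count, while 35 tested genes had no count in testis.

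Most markers of the gonads' own cell types pointed to the labelled gonad, and figla, rspo1 and cyp11c1 did not. Of 52 marker symbols, 36 were in the table, and 21 of these were higher in testis, 8 were lower, 4 did not pass and 3 were too low to test. The 5 markers of testis germ cells summed to 1355 to 1697 FPKM in testis, against 19 to 20.9 FPKM in ovary, and the 5 Sertoli markers to 1022 to 1105 FPKM in testis, against 36.9 to 53.2 FPKM in ovary. The 4 oocyte markers summed to 47.1 to 51.2 FPKM in testis and 1329 to 1478 FPKM in ovary, although figla was higher in testis. The 4 Leydig markers summed to 488 to 712 FPKM in testis and 38.5 to 47.7 FPKM in ovary, and 1 of them, cyp11c1, did not pass (log2 change -0.15). The 3 granulosa and theca markers summed to 1.64 to 3.2 FPKM in testis and 76.6 to 122 FPKM in ovary, and 1 of them, rspo1, did not pass (log2 change 0.08). Leukocyte markers (18 to 19.5 FPKM in testis, 12.2 to 26.5 FPKM in ovary) and smooth muscle markers (426 to 738 FPKM in testis, 372 to 432 FPKM in ovary) had overlapping sums. By gene, 1 of the 2 smooth muscle markers was higher in testis and 1 did not pass, and 1 of the 2 leukocyte markers was lower and 1 did not pass.

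The testis side of sex determination was led by dmrt1, the DM-domain transcription factor needed for testis development. It stood at 279, 261 and 264 FPKM in the testis libraries and at 0.958, 0.817 and 1.34 FPKM in the ovary libraries, a log2 change of 7.81 ± 0.16 (edgeR, adjusted p = 3.96e-10). The testis values were tightly grouped, and the ovary values lay near the FPKM minimum of 1. The TGF-beta ligands of Sertoli cells followed. gsdf, a fish gonad growth factor, had 431, 463 and 445 FPKM in testis and 22.5, 31.4 and 23.3 FPKM in ovary (log2 change 3.94 ± 0.13). amh, anti-Müllerian hormone, had 165, 182 and 214 FPKM in testis and 6.61, 8.27 and 7.68 FPKM in ovary (log2 change 4.45 ± 0.12). Nile tilapia carries a nearly identical duplicate of amh on the Y chromosome, and the table lists 1 amh gene, so reads of the copies may be joined there. The ovary was low in both ligands but not devoid of them.

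Further genes of the Sertoli list did not all point the same way. Of its 23 genes tested, 12 were higher and 10 lower in testis. Of the 14 present in all 6 libraries, 6 were higher and 7 lower. cldn11a, a claudin of the Sertoli cell barrier, averaged 161 ± 18.1 FPKM in testis and 10.2 ± 3.1 FPKM in ovary, and tjp1b, a tight junction scaffold, 96.3 ± 3.81 FPKM in testis and 4.5 ± 0.384 FPKM in ovary (SD, n = 3 each, here and below). sox9a, the fish counterpart of a mammalian testis factor, was low in absolute terms at 2.65, 2.46 and 2.72 FPKM in testis, yet at only 0.141, 0.102 and 0.136 FPKM in ovary (log2 change 4.15 ± 0.27). Its relative sox8a ran the other way at 2.65 ± 0.506 FPKM in testis and 9.87 ± 1 FPKM in ovary. So did dhh, the desert hedgehog signal that Sertoli cells of mammals send to Leydig cells, at 6.49, 7.77 and 8.61 FPKM in testis and 14, 15.1 and 14 FPKM in ovary (log2 change -1.10 ± 0.11). The Wilms tumour factors split, with wt1a higher (log2 change 1.71 ± 0.39) and wt1b lower (log2 change -1.36 ± 0.15) in testis. clu, clusterin, an abundant secreted chaperone of mammalian Sertoli cells, had 249, 224 and 255 FPKM in testis and 378, 563 and 589 FPKM in ovary, so all 3 ovary libraries lay above all testis libraries. The growth factors pdgfab, fgf16 and fgf20b were likewise lower in testis, by log2 changes of -3.59 to -5.11.

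On the ovary side, the somatic genes foxl2, cyp19a1a and hsd17b1 were all lower in testis. foxl2, the forkhead factor that maintains granulosa cells, had 0, 0.616 and 0.258 FPKM in testis and 7.73, 13.2 and 16.6 FPKM in ovary (log2 change -5.43 ± 0.69, -6.62 without testis 2). Its target cyp19a1a, gonadal aromatase, which turns androgens into oestrogens, had 0.616, 1.08 and 0.9 FPKM in testis and 67.8, 90.2 and 104 FPKM in ovary (log2 change -6.80 ± 0.23). hsd17b1, which makes oestradiol from oestrone, was nearly absent from testis at 0.129, 0 and 0.0531 FPKM and had 43.6, 69.7 and 59.6 FPKM in ovary (log2 change -10.09 ± 0.42, -11.34 without testis 1 and -9.35 without testis 2). All 3 genes were at their lowest ovary value in ovary 1. Of the 23 genes tested in the granulosa list, 9 were higher and 12 lower in testis, and 18 qualified through 1 gonad only. Of the 4 present in all 6 libraries 1 was higher and 2 were lower.

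Members of that list with a role in mammalian ovary development were found on the testis side. The paralogues of WNT4, the mammalian ovary signal, split. wnt4a had 0.172, 0.154 and 0.567 FPKM in testis and 2.64, 4.65 and 5.13 FPKM in ovary, while wnt4b had 9.63, 9.05 and 6.69 FPKM in testis and no count in any ovary library, at least 829-fold higher against a floor of 3 counts over the ovary group. lgr4, an R-spondin receptor, averaged 37.5 ± 2.4 FPKM in testis and 0.388 ± 0.125 FPKM in ovary, and inhbaa, an activin subunit, 8.89 ± 1.04 FPKM in testis and 0.953 ± 0.475 FPKM in ovary. inha, the inhibin alpha subunit, had 212, 207 and 205 FPKM in testis and 47.2, 85 and 69.3 FPKM in ovary (log2 change 1.45 ± 0.18). The R-spondin rspo1, a granulosa marker, did not pass the test (log2 change 0.08 ± 0.28, edgeR adjusted p = 0.788), with overlapping values of 1.02, 1.27 and 2.04 FPKM in testis and 1.05, 1.25 and 1.3 FPKM in ovary.

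Steroid synthesis genes had strong members on each side. Beside the oestrogen-forming cyp19a1a and hsd17b1, which were lower in testis, several enzymes of progestin and androgen synthesis were higher in testis. star, which carries cholesterol into mitochondria, had 213, 238 and 314 FPKM in testis and 3.07, 2.77 and 3.74 FPKM in ovary (log2 change 6.13 ± 0.18). cyp11a2, the side-chain cleavage enzyme, had 155, 180 and 241 FPKM in testis and 7.78, 9.68 and 11.2 FPKM in ovary (log2 change 4.14 ± 0.18). cyp17a2, a 17-hydroxylase of fish, reached 259, 311 and 501 FPKM in testis and 4.87, 5.71 and 8.19 FPKM in ovary (log2 change 5.64 ± 0.30), and the gene listed as cyp17 122, 148 and 240 FPKM in testis and 8.45, 9.39 and 11.8 FPKM in ovary. Testis 3 was the highest testis library for each of these 4 genes. hsd3b1, which forms progesterone, averaged 122 ± 16.6 FPKM in testis and 14.5 ± 3.71 FPKM in ovary, and nr5a1, the SF1 gene itself, 13 ± 4.42 FPKM in testis and 2.04 ± 0.718 FPKM in ovary (log2 change 2.47 ± 0.31).

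The steps to 11-ketotestosterone, the main androgen of male fish, were uneven. hsd11b2, which oxidises the 11-hydroxyl group, had 44.2, 52.8 and 70 FPKM in testis and 1.12, 1.43 and 1.5 FPKM in ovary (log2 change 5.18 ± 0.19). cyp11c1, the 11-hydroxylase before it, did not pass (log2 change -0.15 ± 0.12, edgeR adjusted p = 0.287) and had overlapping values, 13.5, 15.4 and 16.5 FPKM in testis and 16.9, 12.7 and 14.7 FPKM in ovary. The 5-alpha reductases were lower in testis, srd5a1 at 3.42 ± 0.144 FPKM in testis and 43.8 ± 1.9 FPKM in ovary and srd5a2a at 5.69 ± 0.323 FPKM in testis and 16.5 ± 1.69 FPKM in ovary. Other members of the list that were lower in testis included scarb1, a lipoprotein receptor that takes up cholesterol (7.08 ± 0.22 FPKM in testis, 106 ± 11 FPKM in ovary), fdx1, the electron donor of mitochondrial P450 enzymes (40.2 ± 6.88 FPKM in testis, 190 ± 4 FPKM in ovary), and tspo, a mitochondrial membrane protein (69.5 ± 12.6 FPKM in testis, 263 ± 21.5 FPKM in ovary). Over the list of 40 genes tested, 18 were higher and 19 lower in testis, and of the 32 present in all 6 libraries 15 were higher and 15 lower. The median log2 change of -0.03 turned positive under other scalings.

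The oestrogen receptors differed by paralogue. The oestrogen receptor esr2b had 8.21, 8.53 and 14.6 FPKM in testis and 0.916, 1.07 and 1.14 FPKM in ovary (log2 change 3.13 ± 0.26), and esr2a had 6.81, 7.6 and 9.51 FPKM in testis and 25.5, 25.7 and 24.8 FPKM in ovary (log2 change -1.85 ± 0.11). pgrmc1, a membrane-bound progesterone-binding protein, averaged 258 ± 49.4 FPKM in testis and 33.7 ± 8.66 FPKM in ovary. paqr8, a membrane progestin receptor linked to oocyte maturation in fish, averaged 2.41 ± 0.395 FPKM in testis and 77.9 ± 4.82 FPKM in ovary. lhcgr, the luteinising hormone receptor, was low in both, at 1.46 ± 0.39 FPKM in testis and 0.194 ± 0.0254 FPKM in ovary, with a log2 change of 2.72 ± 0.32. Of 33 receptors tested 19 were higher and 7 lower in testis, but 14 qualified through testis alone, and of the 16 present in all 6 libraries 5 were higher and 6 lower.

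**Figure D2:**
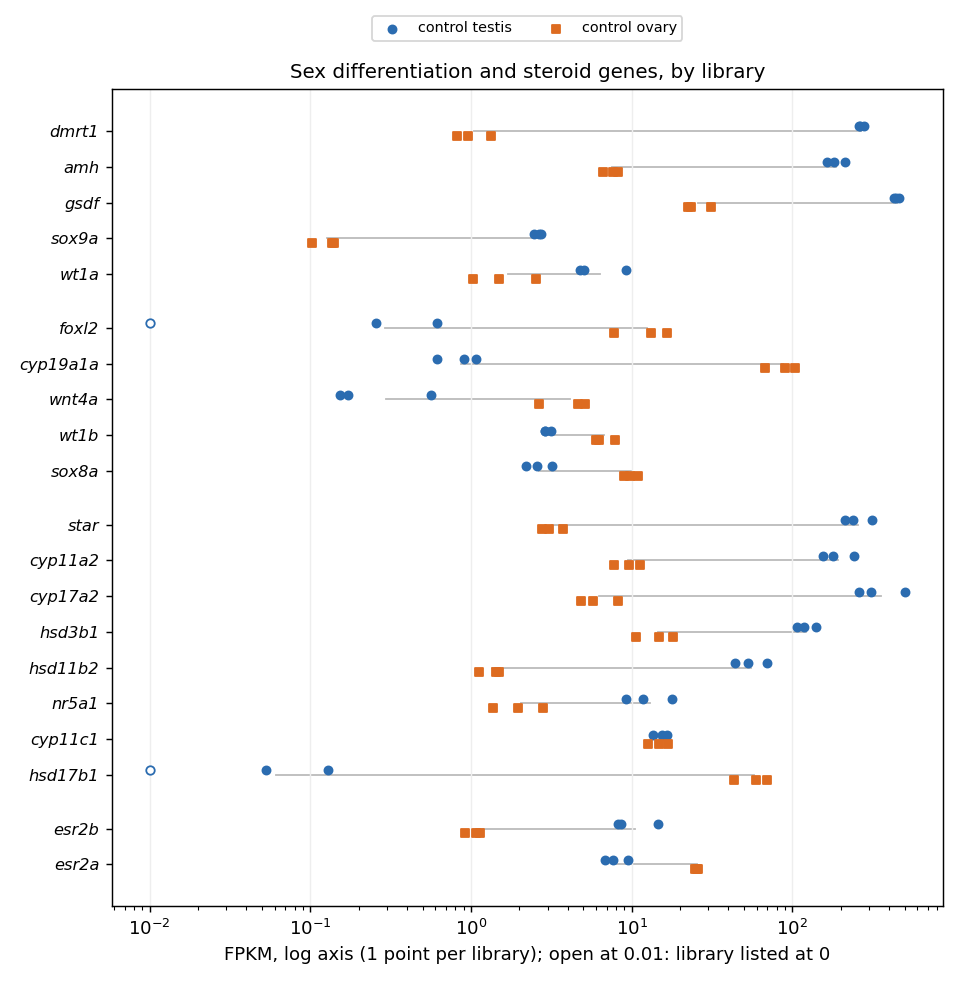
FPKM of each control testis library (blue circles) and each control ovary library (orange squares) for genes of testis and ovary differentiation, steroid synthesis and oestrogen receptors, on a log axis, with a grey line between the group means and an open marker at 0.01 for a library listed at 0. dmrt1, star and cyp17a2 lie far to the testis side, hsd17b1 and cyp19a1a far to the ovary side, and the points of cyp11c1 overlap.

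Oocyte genes were mostly far lower in testis. Of 20 oocyte regulators tested, 17 were at least 4-fold lower in testis and 3 were higher. Of the 14 present in all 6 libraries 11 were lower. Their summed level was 240 to 252 FPKM in testis and 5033 to 5212 FPKM in ovary. zar1, a binding protein of stored maternal RNA, had 4.85, 5.05 and 4.79 FPKM in testis and 934, 894 and 1037 FPKM in ovary (log2 change -7.79 ± 0.12). btg4, which directs the clearance of maternal RNA, had 2.9, 2.68 and 2.19 FPKM in testis and 832, 866 and 879 FPKM in ovary (log2 change -8.54 ± 0.14). The oocyte growth factor gdf9 had 0.485, 0.818 and 0.806 FPKM in testis and 236, 221 and 221 FPKM in ovary, and its partner bmp15 had 2.95, 2.77 and 2.26 FPKM in testis and 189, 193 and 199 FPKM in ovary. The ovary values of these 4 genes lay close together, and ovary 1 did not stand apart in them.

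The 3 genes of the oocyte list that were higher in testis differed less. figla, the helix-loop-helix factor that activates egg coat genes in oocytes, had 42.9, 38.5 and 42.5 FPKM in testis and 20.9, 21.1 and 21.3 FPKM in ovary (log2 change 0.79 ± 0.08). dazl, an RNA-binding protein of germ cells of both sexes, had 70.4, 83.8 and 74.8 FPKM in testis and 29.5, 29.6 and 26.1 FPKM in ovary (log2 change 1.24 ± 0.10). The third was ACCSL, at a lower level (6.57 ± 0.875 FPKM in testis, 3.73 ± 0.127 FPKM in ovary). The 1 egg coat gene matched by its symbol, zp2.1, is of a kind that figla is known to drive in other species. It had 0.489, 1.81 and 1.05 FPKM in testis and 1015, 975 and 1005 FPKM in ovary (log2 change -9.95 ± 0.41). Egg coat genes without a symbol would have been missed, as 17380 of the 22283 genes have one. figla and this egg coat gene therefore pointed in opposite directions across the gonads.

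Further genes known from oocytes and early embryos were among those named for large or abundant changes, so their direction was part of how they were chosen. birc5b, a survivin paralogue, had 0.845, 1.09 and 0.82 FPKM in testis and 758, 719 and 715 FPKM in ovary, while birc5a differed far less (133 ± 11.6 FPKM in testis, 314 ± 5.58 FPKM in ovary). slbp2, the histone mRNA binding protein of oocytes, averaged 1.93 ± 0.272 FPKM in testis and 304 ± 24.7 FPKM in ovary. tbpl2, the TATA-binding protein of oocytes, averaged 0.226 ± 0.21 FPKM in testis and 153 ± 3.83 FPKM in ovary. The pluripotency factor pou5f3 had 0.701 ± 0.266 FPKM in testis and 155 ± 4.92 FPKM in ovary, sox3 0.852 ± 0.206 FPKM in testis and 263 ± 22.6 FPKM in ovary, and foxh1, the maternal partner of Nodal signalling, 1.37 ± 0.345 FPKM in testis and 34.4 ± 1.66 FPKM in ovary. spaca4l, the relative of a mammalian sperm protein whose fish counterpart Bouncer sits on the egg, had 1.48, 2.64 and 0.348 FPKM in testis and 198, 192 and 185 FPKM in ovary.

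Yolk, lipid and retinoid handling was dominated by a few carriers that were very high in ovary. vldlr, the receptor that takes up vitellogenin, had 8.52, 9.33 and 8.93 FPKM in testis and 324, 288 and 315 FPKM in ovary (log2 change -5.29 ± 0.10). The apolipoprotein apoeb had 32, 25 and 28.2 FPKM in testis and 1395, 3276 and 3141 FPKM in ovary (log2 change -6.70 ± 0.35), and ovary 1 was well below ovary 2 and 3. apoa1a, a plasma apolipoprotein and 1 of the liver markers, had the same pattern at 1.12, 0.916 and 0.803 FPKM in testis and 149, 358 and 268 FPKM in ovary. The liver marker fga, fibrinogen alpha, was too low to test. Its mean was under 1 FPKM in both gonads and was the higher in testis. npc2, a sterol carrier of lysosomes, averaged 47.9 ± 3.35 FPKM in testis and 976 ± 56.5 FPKM in ovary. The retinol carrier rbp7b averaged 220 ± 17.5 FPKM in testis and 1920 ± 48.8 FPKM in ovary and supplied most of the ovary sum of the retinoid list, which was 423 to 455 FPKM in testis and 2480 to 2626 FPKM in ovary.

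The fatty acid binding proteins split by member. fabp11b had 13, 12.1 and 10.8 FPKM in testis and 1890, 1612 and 1645 FPKM in ovary, fabp1b.1 0.486, 1.04 and 0.779 FPKM in testis and 997, 943 and 912 FPKM in ovary, and fabp11a 74.9, 72.3 and 88.6 FPKM in testis and 415, 1064 and 906 FPKM in ovary, lowest again in ovary 1. fabp3, the heart-type protein, ran the other way at 254, 231 and 227 FPKM in testis and 16.9, 25 and 26.3 FPKM in ovary (log2 change 3.20 ± 0.16), as did fabp7a, the brain-type protein, at 138, 130 and 119 FPKM in testis and 8.28, 8.33 and 7.15 FPKM in ovary (log2 change 3.85 ± 0.11). acsl5, which activates fatty acids, averaged 0.376 ± 0.181 FPKM in testis and 371 ± 29.3 FPKM in ovary. Of 57 fatty acid genes tested 35 were lower and 15 higher in testis, and of the 49 present in all 6 libraries 30 were lower and 12 higher. Of 50 genes of cholesterol synthesis and lipoprotein handling tested, 17 were higher and 26 lower in testis. Of the 37 present in all 6 libraries 7 were higher and 23 lower, beside 35.5% and 48.7% over all such genes. The synthesis enzymes pointed both ways, with cyp51 (log2 change 2.53 ± 0.10) and msmo1 (log2 change 4.22 ± 0.27) higher in testis and nsdhl lower (log2 change -2.45 ± 0.12).

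Proteases that cleave yolk differed by member. Of 24 genes tested for yolk uptake and processing, 6 were higher, 11 lower and 7 not past the test, and of the 18 present in all 6 libraries 3 were higher and 8 lower. A copy of CTSS, a cathepsin, averaged 1.21 ± 0.327 FPKM in testis and 378 ± 16.2 FPKM in ovary, and ctsla and ctsba were also lower in testis, by log2 changes of -1.45 and -1.49. ctsd, cathepsin D, the main yolk protease of many fish, was slightly higher in testis (165, 151 and 184 FPKM in testis, 71.9, 132 and 119 FPKM in ovary, log2 change 0.45 ± 0.19, edgeR adjusted p = 0.0484). That call was lost on leaving out ovary 1 (log2 change 0.24), ovary 3 (0.54), testis 1 (0.46), testis 2 (0.53) or testis 3 (0.43).

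Germ cell genes common to both sexes were found in both gonads, with more in testis. Of 36 germ line and piRNA pathway genes tested, 25 were higher and 8 lower in testis, and of the 27 present in all 6 libraries 18 were higher and 7 lower. piwil1, a Piwi protein that binds piRNAs and silences transposons, had 1067, 1025 and 1021 FPKM in testis and 107, 101 and 106 FPKM in ovary (log2 change 3.13 ± 0.09), while piwil2 differed much less (122 ± 1.2 FPKM in testis, 76.8 ± 3.14 FPKM in ovary, log2 change 0.49 ± 0.07). ddx4, the Vasa helicase, had 543, 495 and 460 FPKM in testis and 147, 153 and 153 FPKM in ovary (log2 change 1.55 ± 0.09). tdrd9, a Tudor-domain helicase of the pathway, averaged 335 ± 6.67 FPKM in testis and 7.8 ± 1.23 FPKM in ovary and tdrd1 237 ± 3.52 FPKM in testis and 57.2 ± 2.82 FPKM in ovary. MOV10L1, a piRNA helicase that in mice is needed in male germ cells, was lower in testis at 27 ± 0.816 FPKM in testis and 79.6 ± 6.39 FPKM in ovary.

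The Nanos proteins, RNA-binding repressors of the germ line, sorted by sex. nanos3 had 2.89, 4.73 and 2.32 FPKM in testis and 315, 317 and 314 FPKM in ovary (log2 change -6.71 ± 0.21). NANOS2, which keeps male germ cells as stem cells in mice, had 14.9, 14.3 and 11.3 FPKM in testis and no count in the 3 ovary libraries, at least 329-fold higher. dnd1, a germ cell protector, was lower in testis by a smaller margin (43.8 ± 5.72 FPKM in testis, 65.3 ± 2.76 FPKM in ovary, log2 change -0.75 ± 0.11).

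Meiotic genes were mostly higher in testis, and the size of the difference varied by gene. Of 44 tested, 29 were higher, 8 lower and 7 not past. Of the 36 present in all 6 libraries 21 were higher and 8 lower. sycp3, an axis protein of the synaptonemal complex, had 1079, 946 and 863 FPKM in testis and 7.02, 5.96 and 6.89 FPKM in ovary (log2 change 7.0 ± 0.15), hormad1 164, 154 and 152 FPKM in testis and 0.605, 0.451 and 0.341 FPKM in ovary, and dmc1, the meiotic recombinase, 339, 312 and 276 FPKM in testis and 12.4, 11.7 and 12.3 FPKM in ovary (log2 change 4.49 ± 0.11). STAG3, a cohesin subunit of meiosis, averaged 218 ± 11.7 FPKM in testis and 27.7 ± 0.701 FPKM in ovary, and rec114, needed for meiotic breaks, 250 ± 46.8 FPKM in testis and 6.17 ± 0.66 FPKM in ovary. spo11, the break-forming enzyme itself, differed little, at 47.1, 49.2 and 47.7 FPKM in testis and 26.8, 23.8 and 22.8 FPKM in ovary (log2 change 0.79 ± 0.09). The members that were lower in testis included the DNA repair genes blm, exo1, fancg and mcm8, with log2 changes of -0.72 to -1.26. Testis 3 was the lowest testis library for sycp3 and dmc1.

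**Figure D3:**
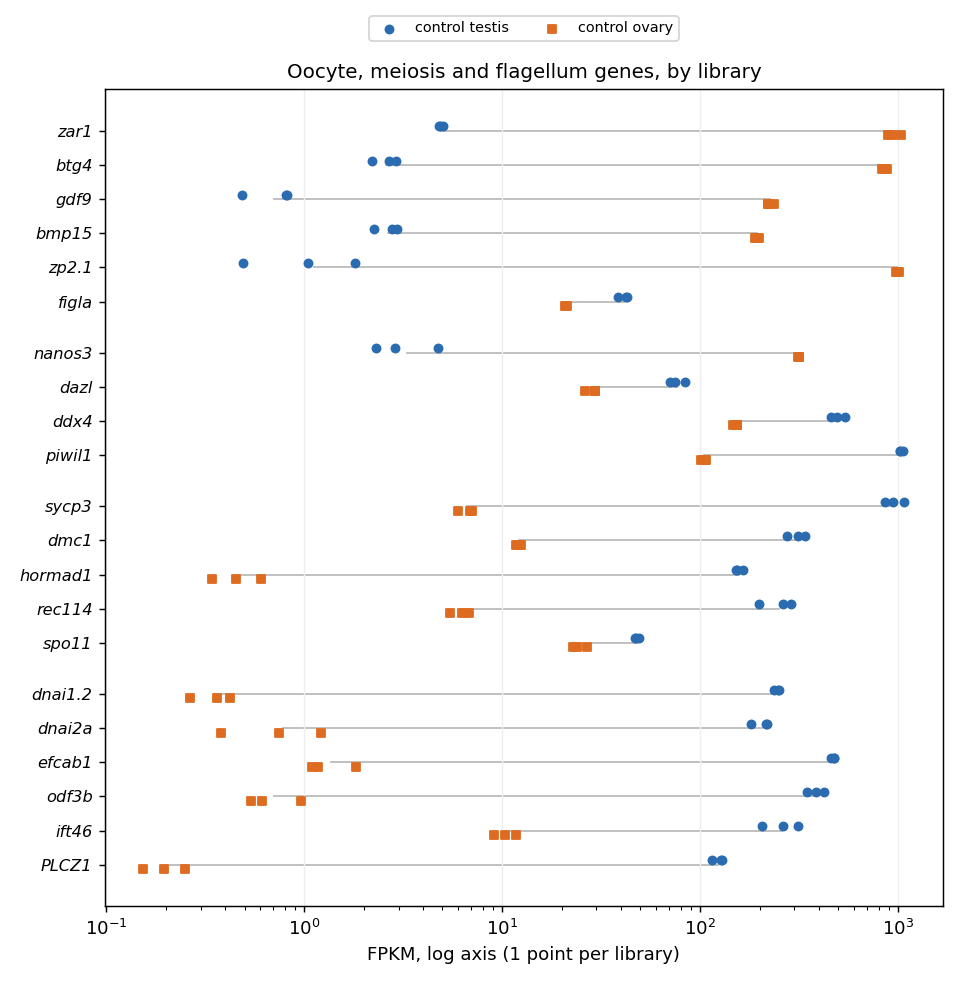
FPKM of each control testis library (blue circles) and each control ovary library (orange squares) for oocyte, germ line, meiosis and flagellum genes, on a log axis, with a grey line between the group means. The oocyte genes apart from figla lie on the ovary side, with ovary means from 194 FPKM for bmp15 to 955 FPKM for zar1 and more for zp2.1, the flagellum genes lie on the testis side, and spo11 and figla have the shortest lines.

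Nearly all genes of the sperm flagellum were higher in testis. Of 35 axonemal dynein and dynein assembly genes tested, 34 were higher in testis, with a summed level of 2517 to 2638 FPKM in testis and 133 to 139 FPKM in ovary. Of these 35, 22 qualified through testis alone, and among the 13 present in all 6 libraries 12 were higher. dnai1.2, an intermediate chain of the outer dynein arm, had 251, 247 and 236 FPKM in testis and 0.363, 0.265 and 0.421 FPKM in ovary (log2 change 9.24 ± 0.15), and dnai2a had 217, 215 and 182 FPKM in testis and 0.748, 0.379 and 1.21 FPKM in ovary. zmynd10, a dynein arm assembly factor, averaged 166 ± 6.04 FPKM in testis and 0.53 ± 0.194 FPKM in ovary. The exception was a copy of dynlt3, a light chain that also serves cytoplasmic dynein, at 17, 14.8 and 15.5 FPKM in testis and 23.2, 25.6 and 23.5 FPKM in ovary.

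The rest of the axoneme followed. Of 65 genes of radial spokes, central pair and related structures tested, 61 were higher and 2 lower, with sums of 5542 to 6101 FPKM in testis and 386 to 417 FPKM in ovary, and of the 34 present in all 6 libraries 30 were higher. efcab1, a calcium-binding axoneme protein, had 475, 461 and 476 FPKM in testis and 1.1, 1.17 and 1.83 FPKM in ovary, odf3b, an outer dense fibre protein, 424, 387 and 348 FPKM in testis and 0.959, 0.542 and 0.611 FPKM in ovary, and efhc2 280, 267 and 237 FPKM in testis and 0.304, 0.393 and 0.369 FPKM in ovary. The pair that was lower in testis consisted of cfap206 (log2 change -0.54 ± 0.08) and poc1b (log2 change -2.32 ± 0.13). foxj1a, the master factor of motile cilia, had 42, 35.5 and 28 FPKM in testis and 0.0625, 0.0868 and 0.0266 FPKM in ovary (log2 change 9.01 ± 0.29).

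Intraflagellar transport and centriole genes were less uniform. Of 87 tested 68 were higher and 14 lower, and of the 75 present in all 6 libraries 58 were higher and 12 lower. The transport subunit ift46 had 313, 263 and 206 FPKM in testis and 10.3, 11.7 and 9.14 FPKM in ovary, ift27 233, 215 and 189 FPKM in testis and 17.8, 16.6 and 18.3 FPKM in ovary, and arl3, a small GTPase of cilia, 220, 209 and 179 FPKM in testis and 22.2, 21.4 and 24 FPKM in ovary. The genes lower in testis included centriole and spindle pole proteins, sass6 (log2 change -1.18 ± 0.09), cetn3 (log2 change -1.15 ± 0.10), cep70 (log2 change -2.15 ± 0.10) and cep55l (log2 change -3.78 ± 0.15). Of 57 tubulins and tubulin modifiers tested, 35 were higher and 13 lower, and of the 38 present in all 6 libraries 21 were higher and 8 lower. tubb2b was among the 10 most abundant genes of testis and still common in ovary (2404 ± 271 FPKM in testis, 1273 ± 45.6 FPKM in ovary), a copy of TUBB4A was nearer to testis (469 ± 29.8 FPKM in testis, 56.1 ± 3.24 FPKM in ovary), and tuba4l was an ovary gene (0.476 ± 0.131 FPKM in testis, 96.4 ± 1.17 FPKM in ovary).

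Among spermatid and fertilisation genes, 17 of 26 tested were higher and 7 lower in testis, and of the 16 present in all 6 libraries 9 were higher and 5 lower. PLCZ1, the sperm phospholipase that activates the egg in mammals, had 129, 127 and 115 FPKM in testis and 0.154, 0.249 and 0.197 FPKM in ovary (log2 change 9.05 ± 0.15), and its gene overlaps another in the table. spata18 averaged 65.8 ± 8.39 FPKM in testis and 0.12 ± 0.0949 FPKM in ovary, spata4 92.7 ± 7.03 FPKM in testis and 8.49 ± 0.68 FPKM in ovary, and dcst2, a sperm membrane protein of gamete fusion, 56.6 ± 5.01 FPKM in testis and 0.951 ± 0.217 FPKM in ovary. ACTRT1, an actin-related protein of the sperm head in mammals, was lower in testis at 1.36, 1.58 and 1.71 FPKM in testis and 23.1, 23.2 and 21.4 FPKM in ovary.

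Cyclins and their kinases had members on each side, in shares near those of all genes present in all 6 libraries (35.5% higher, 48.7% lower). The A and B cyclins named here were lower in testis. Of 72 genes tested 28 were higher and 32 lower in testis, and of the 63 present in all 6 libraries 21 were higher and 30 lower. The summed level was 3403 to 3615 FPKM in testis and 6434 to 6563 FPKM in ovary. ccna2 had 56.5, 58.4 and 56.3 FPKM in testis and 1292, 1164 and 1292 FPKM in ovary (log2 change -4.63 ± 0.11). The B cyclins, partners of Cdk1 in the maturation of the egg, were ccnb1 at 231, 231 and 205 FPKM in testis and 712, 672 and 739 FPKM in ovary and ccnb2 at 126, 131 and 112 FPKM in testis and 787, 777 and 788 FPKM in ovary. The kinases cdk1 and cdk2 ran the other way, cdk1 at 304, 267 and 242 FPKM in testis and 99.5, 102 and 101 FPKM in ovary (log2 change 1.25 ± 0.11) and cdk2 at 148, 137 and 133 FPKM in testis and 42.4, 42.4 and 40.8 FPKM in ovary (log2 change 1.55 ± 0.08). cks1b, a Cdk-binding subunit, averaged 36 ± 1.79 FPKM in testis and 479 ± 16.7 FPKM in ovary.

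Mitotic genes had nearly equal counts on each side, and more replication genes were lower than higher in testis. The shares over all genes present in all 6 libraries were 35.5% higher and 48.7% lower. Of 79 mitotic kinase, kinetochore and checkpoint genes tested 38 were higher and 34 lower, and of the 75 present in all 6 libraries 35 were higher and 33 lower, with top2a (log2 change 2.13 ± 0.09), cdc27 (log2 change 1.81 ± 0.10) and ndc80 (log2 change 1.59 ± 0.08) higher in testis and aurka (log2 change -1.14 ± 0.08) and pttg1, securin (log2 change -1.61 ± 0.14), lower. Of 63 DNA replication genes tested 15 were higher and 34 lower, and of the 61 present in all 6 libraries 13 were higher and 34 lower. The helicase subunits mcm2 (log2 change -0.59 ± 0.09) and mcm7 (log2 change -1.41 ± 0.10) and a copy of gmnn, geminin (log2 change -2.78 ± 0.09), were lower in testis, the single-strand binding proteins rpa1 (log2 change 1.71 ± 0.07) and rpa2 (log2 change 1.34 ± 0.12) were higher, and the polymerase clamp pcna overlapped at 154, 137 and 125 FPKM in testis and 135, 144 and 126 FPKM in ovary.

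Histone variants and chromatin proteins leaned to testis in number and differed by member more than in sum. Among genes present in all 6 libraries the list had a median log2 change of 0.38, against -0.27 over all such genes. Of all such genes 35.5% were higher and 48.7% lower in testis. Of 184 genes tested 107 were higher and 57 lower in testis, and of the 156 present in all 6 libraries 84 were higher and 54 lower, while the sums were 7676 to 8044 FPKM in testis and 6788 to 6929 FPKM in ovary. The histone H2A variant h2afva had 1055, 975 and 838 FPKM in testis and 125, 136 and 134 FPKM in ovary (log2 change 2.68 ± 0.12), and h2afx had 20.6, 22.4 and 28.5 FPKM in testis and 373, 425 and 433 FPKM in ovary (log2 change -4.29 ± 0.12). Of the heterochromatin proteins, cbx3a averaged 559 ± 18.6 FPKM in testis and 223 ± 4.3 FPKM in ovary and cbx5 43.5 ± 6.19 FPKM in testis and 309 ± 6.93 FPKM in ovary. phc2b, a Polycomb protein and 1 of the 15 largest changes on the ovary side, had 0.651, 0.781 and 0.58 FPKM in testis and 683, 695 and 654 FPKM in ovary.

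Genes of cytosolic and of mitochondrial ribosomal proteins differed in opposite directions. Of 75 cytosolic ribosomal protein genes tested 68 were higher in testis and 3 lower, with a median log2 change of 1.06 and sums of 66157 to 78946 FPKM in testis and 28944 to 36258 FPKM in ovary. Of the 73 present in all 6 libraries 67 were higher and 3 lower. rps27a had 2886, 2421 and 2298 FPKM in testis and 861, 1150 and 957 FPKM in ovary (log2 change 1.18 ± 0.14), rpl8 2567, 2289 and 2152 FPKM in testis and 810, 1036 and 937 FPKM in ovary (log2 change 1.15 ± 0.12) and rps14 2655, 2334 and 2015 FPKM in testis and 795, 1041 and 862 FPKM in ovary (log2 change 1.20 ± 0.14). rpl3 was the most abundant of the 4 that did not pass (1635, 1554 and 1535 FPKM in testis, 1162, 1255 and 1277 FPKM in ovary), and it passed without testis 3 (log2 change 0.25). Of the 68 mitochondrial ribosomal protein genes 52 were lower and 9 higher in testis, with a median log2 change of -0.97 and sums of 2745 to 3233 FPKM in testis and 4702 to 5103 FPKM in ovary. All 68 were present in all 6 libraries. mrpl32 averaged 21.1 ± 2.36 FPKM in testis and 234 ± 11.8 FPKM in ovary and mrps2 48.3 ± 3.57 FPKM in testis and 298 ± 10.2 FPKM in ovary, while mrps18c was higher in testis at 116 ± 24.5 FPKM in testis and 39.5 ± 4.95 FPKM in ovary.

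Proteasome and splicing genes leaned to testis, and translation genes had nearly equal counts on each side. Of all genes present in all 6 libraries, by contrast, 35.5% were higher and 48.7% lower in testis. Of 49 proteasome genes, all present in all 6 libraries, 33 were higher and 12 lower, with a median log2 change of 0.59. psmb6, a catalytic subunit, had 489, 414 and 331 FPKM in testis and 76, 77.1 and 74.4 FPKM in ovary (log2 change 2.26 ± 0.15), and psmf1, a proteasome inhibitor, 281, 297 and 284 FPKM in testis and 28.2, 29.8 and 27.8 FPKM in ovary (log2 change 3.15 ± 0.08). psme3, a proteasome activator, was lower in testis (log2 change -0.77 ± 0.07). Of 84 splicing factors 55 were higher and 23 lower, and of the 81 present in all 6 libraries 52 were higher and 23 lower, but the abundant hnrnpa1b was lower in testis at 88.4, 88.2 and 116 FPKM in testis and 544, 530 and 598 FPKM in ovary. Of 173 genes of translation control and mRNA storage 82 were higher and 71 lower, and of the 160 present in all 6 libraries 72 were higher and 68 lower. ybx1, an mRNA-packaging protein, averaged 1586 ± 63.9 FPKM in testis and 564 ± 61.8 FPKM in ovary, and cpeb1b, which controls stored mRNA in oocytes, 39.2 ± 1.03 FPKM in testis and 380 ± 17 FPKM in ovary. Of 256 ubiquitin pathway genes 114 were higher and 104 lower, but of the 229 present in all 6 libraries 91 were higher and 100 lower. OTUB2, a deubiquitinase, stood at 4.28, 6.55 and 4.59 FPKM in testis and 1462, 1403 and 1389 FPKM in ovary, and march5l, a ubiquitin ligase, at 12.2, 11.1 and 12.1 FPKM in testis and 776, 777 and 765 FPKM in ovary.

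**Figure D4:**
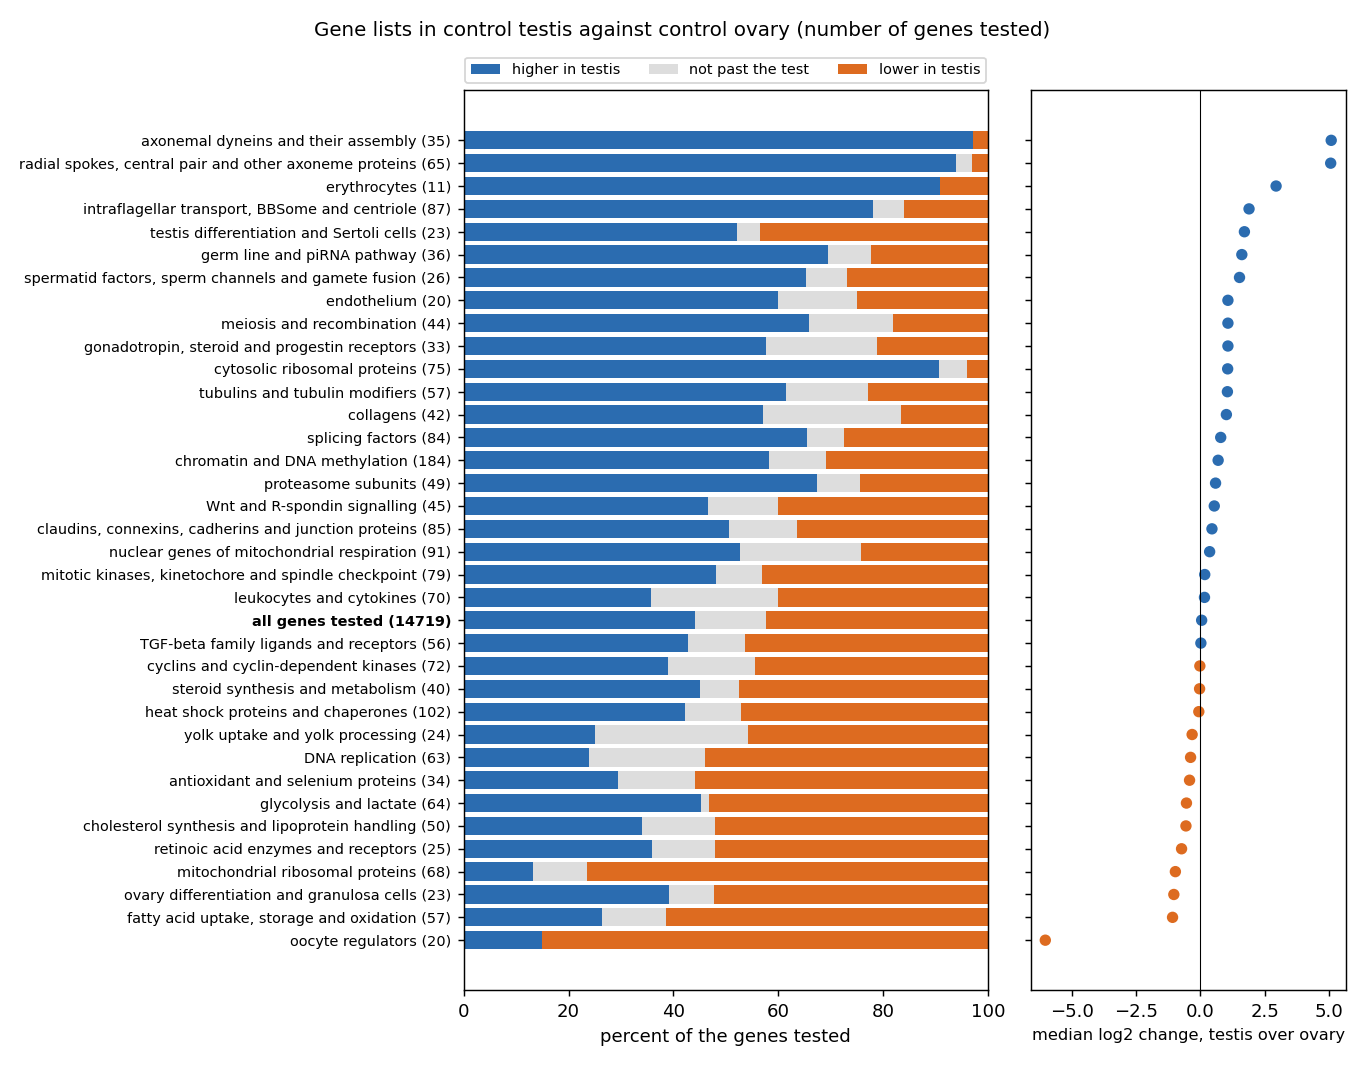
Left, percent of the tested genes of each list that were higher in control testis (blue), did not pass the test (grey) or were lower in control testis (orange). Right, median log2 change of each list, testis over ovary. Among them are axonemal dyneins (median 5.08) and oocyte regulators (median -6.02), and all 14719 genes tested stand at 0.05. Of the 55 lists, 2 have medians beyond these. Neurons and glia have a median of 5.90, with 8 of 9 genes tested higher, 6 of the 9 qualifying through testis alone. The zona pellucida list, with 1 gene, stands at -9.95.

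Transcripts of energy metabolism genes differed in summed level and in which gene of a family was higher. The glycolysis list summed to 1960 to 2019 FPKM in testis and 7001 to 7349 FPKM in ovary. Of its 64 genes tested 29 were higher and 34 lower in testis, and of the 37 present in all 6 libraries 8 were higher and 28 lower. Glyceraldehyde-3-phosphate dehydrogenase came in 3 genes. gapdhs, the spermatogenic form of mammals, had 63.1, 66.7 and 64.2 FPKM in testis and 17.7, 25.4 and 25.4 FPKM in ovary (log2 change 1.32 ± 0.13). gapdh had 263, 272 and 248 FPKM in testis and 834, 826 and 825 FPKM in ovary (log2 change -1.85 ± 0.08), and a copy listed as GAPDH had 40.3, 43.2 and 38.4 FPKM in testis and 1158, 1092 and 1118 FPKM in ovary (log2 change -4.97 ± 0.10).

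Enolase, further along the path, also had forms on each side. eno1a had 219, 217 and 207 FPKM in testis and 10.8, 12.5 and 14.3 FPKM in ovary, eno4, a sperm enolase in mice, 44.4, 38.8 and 40.5 FPKM in testis and 0.334, 0.362 and 0.346 FPKM in ovary, and eno3, the muscle form, 67.1, 69.8 and 67.3 FPKM in testis and 1230, 1184 and 1206 FPKM in ovary. ldha, lactate dehydrogenase A, averaged 10.2 ± 1.3 FPKM in testis and 641 ± 31 FPKM in ovary (log2 change -6.16 ± 0.12). Of 2 copies of pdha1a, a pyruvate dehydrogenase subunit, 1 had 41.2, 42.2 and 44.1 FPKM in testis and 25.4, 26.3 and 24.5 FPKM in ovary and the other 0.92, 1.28 and 1.09 FPKM in testis and 1031, 910 and 952 FPKM in ovary. Levels of copies depend on how the authors' counting assigned reads that fit more than 1 of them.

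Transcripts of mitochondrial respiration genes differed less in total. Of 91 nuclear genes of respiration, all present in all 6 libraries, 48 were higher, 22 lower and 21 not past, and the sums were 9853 to 11878 FPKM in testis and 8764 to 9664 FPKM in ovary. The genes of cytochrome oxidase subunit 4 lay on opposite sides. cox4i1 had 457, 441 and 425 FPKM in testis and 120, 140 and 122 FPKM in ovary. cox4i2, the form induced by low oxygen in mammals, had 15.8, 17.8 and 18 FPKM in testis and 343, 343 and 312 FPKM in ovary. The ATP synthase subunit atp5g1 averaged 201 ± 17.2 FPKM in testis and 902 ± 8.1 FPKM in ovary. The ADP/ATP carrier was listed as 2 copies of SLC25A5, with 745, 732 and 737 FPKM in testis and 245, 305 and 280 FPKM in ovary for 1 and 40.5, 41.8 and 38.7 FPKM in testis and 331, 327 and 333 FPKM in ovary for the other.

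**Figure D5:**
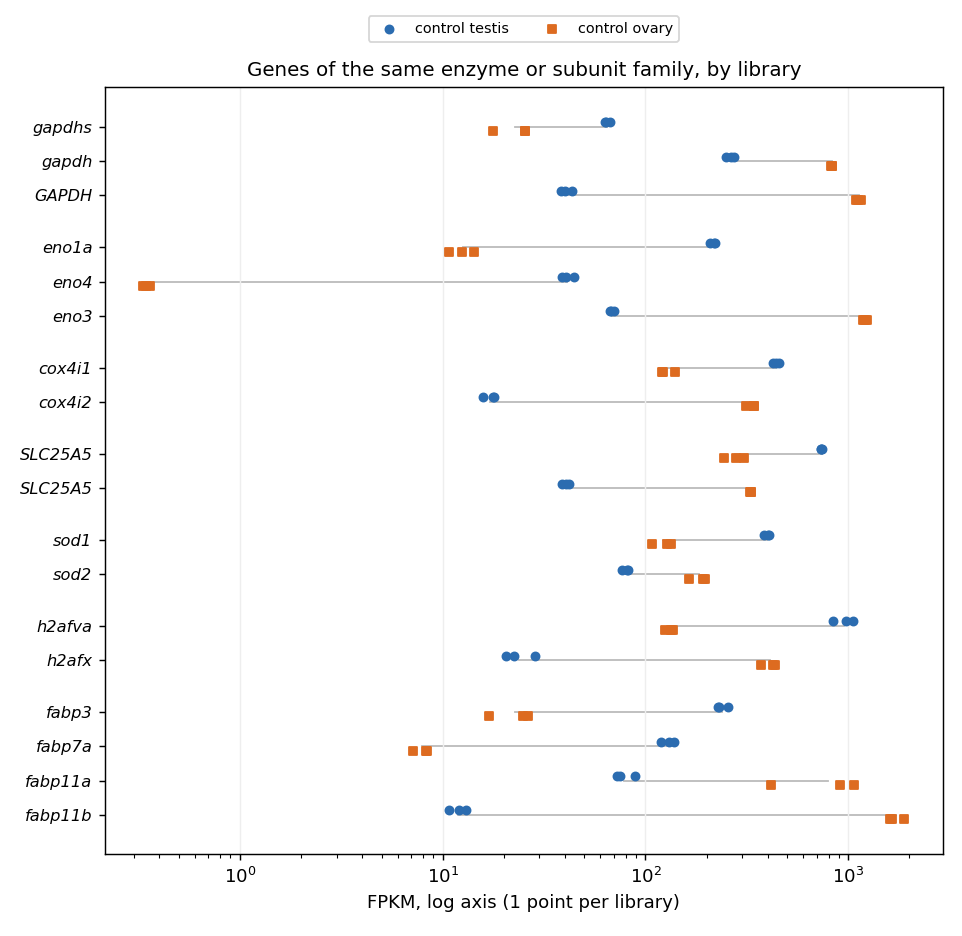
FPKM of each control testis library (blue circles) and each control ovary library (orange squares) for related genes with the same kind of product, on a log axis, with a grey line between the group means. In each family at least 1 gene lies on the testis side and at least 1 on the ovary side, as with eno1a and eno4 against eno3. The genes were selected from those named in both directions, so this split was part of the choice.

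Redox enzymes also had members on each side. A copy of nqo1, a quinone reductase, was the most abundant gene of the ovary, with 3.25, 8.64 and 9.43 FPKM in testis and 5871, 5078 and 4867 FPKM in ovary (log2 change -9.71 ± 0.38). sod1, cytosolic superoxide dismutase, had 407, 401 and 383 FPKM in testis and 133, 127 and 108 FPKM in ovary, and sod2, the mitochondrial form, 81.7, 81.4 and 76.8 FPKM in testis and 191, 197 and 163 FPKM in ovary. hmox2a, a haem oxygenase, averaged 608 ± 5.38 FPKM in testis and 32 ± 3.18 FPKM in ovary. Of 34 antioxidant genes tested 10 were higher and 19 lower in testis, and of the 33 present in all 6 libraries 9 were higher and 19 lower. fth1a, ferritin, had 896, 888 and 809 FPKM in testis and 1308, 2749 and 2510 FPKM in ovary, again lowest in ovary 1.

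Chaperones had members on each side, in shares near those of all genes tested (44.1% higher, 42.3% lower). Of 102 tested 43 were higher and 48 lower in testis, and of the 91 present in all 6 libraries 34 were higher and 47 lower. Cytosolic hsp90ab1 averaged 1682 ± 43.4 FPKM in testis and 766 ± 54.1 FPKM in ovary, and the chaperonin subunit cct2 377 ± 35.4 FPKM in testis and 96.7 ± 4.89 FPKM in ovary. The most abundant members that were lower in testis included proteins of the endoplasmic reticulum, hsp90b1 at 87.9 ± 5.04 FPKM in testis and 222 ± 15.5 FPKM in ovary, pdia3 at 102 ± 3.61 FPKM in testis and 355 ± 8.43 FPKM in ovary and pdia4 at 90 ± 4.66 FPKM in testis and 403 ± 23.1 FPKM in ovary.

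Signalling and transcription factor families held strong genes on each side. The shares over all genes present in all 6 libraries were 35.5% higher and 48.7% lower in testis, and the TGF-beta family lay near them. Of 56 TGF-beta family ligands, receptors and mediators tested 24 were higher and 26 lower in testis, and of the 36 present in all 6 libraries 12 were higher and 19 lower. By FPKM, amh, gsdf and inha were the highest testis ligands and gdf9, bmp15 and gdf3 (2.88 ± 0.941 FPKM in testis, 158 ± 6.43 FPKM in ovary) the highest ovary ligands. The mediators smad1 (log2 change -1.35 ± 0.08) and smad5 (log2 change -1.83 ± 0.11), which carry BMP signals, were lower in testis. Of 45 Wnt pathway genes tested 21 were higher and 18 lower, but 27 qualified through 1 gonad only, and of the 18 present in all 6 libraries 5 were higher and 10 lower. The receptor fzd3a averaged 43.9 ± 2.75 FPKM in testis and 0.945 ± 0.289 FPKM in ovary, and the secreted antagonist sfrp1b 17.7 ± 6.87 FPKM in testis and 59.1 ± 4.64 FPKM in ovary.

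Among Fox, Sox, Gata and Dmrt factors 23 of 43 tested were higher and 15 lower, and of the 19 present in all 6 libraries 10 were higher and 5 lower. dmrt1, described above, was higher in testis, while dmrta1, another DM-domain gene, stood at 1.59, 1.6 and 2.06 FPKM in testis and 297, 333 and 316 FPKM in ovary (log2 change -7.67 ± 0.12). gata6 averaged 47.5 ± 4.74 FPKM in testis and 16.1 ± 2.86 FPKM in ovary, while gata4, a Sertoli and granulosa factor, was low and overlapping (1.95, 2.26 and 2.96 FPKM in testis, 1.29, 2.66 and 2.62 FPKM in ovary). Of 52 nuclear receptors tested 30 were higher and 15 lower, and of the 29 present in all 6 libraries 12 were higher and 12 lower. vdrb, a vitamin D receptor, had 97.5, 98.5 and 88.3 FPKM in testis and 1.15, 0.653 and 1.03 FPKM in ovary (log2 change 6.46 ± 0.18), and nr2e1, an orphan receptor known from the brain and eye, had 0.163, 0 and 0 FPKM in testis and 13.2, 15.1 and 14.1 FPKM in ovary.

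Of 71 growth factor and receptor tyrosine kinase genes tested 38 were higher and 24 lower in testis, but 30 qualified through testis alone, and of the 30 present in all 6 libraries 11 were higher and 14 lower. ntrk2a, a neurotrophin receptor, averaged 11.6 ± 0.592 FPKM in testis and 0.092 ± 0.0592 FPKM in ovary, and egfra, an epidermal growth factor receptor, 15.3 ± 0.381 FPKM in testis and 5.05 ± 0.538 FPKM in ovary. epha2a, an ephrin receptor, was lower in testis at 3.55, 4.65 and 3.71 FPKM in testis and 70.9, 69.4 and 70.6 FPKM in ovary (log2 change -4.32 ± 0.11), as was fgfr1a, a fibroblast growth factor receptor, at 32.7, 36 and 40.7 FPKM in testis and 106, 94.5 and 104 FPKM in ovary (log2 change -1.66 ± 0.09). Of 62 prostaglandin and ovulation genes tested 31 were higher and 26 lower, and of the 27 present in all 6 libraries 7 were higher and 16 lower. ptgdsb.1, listed as a prostaglandin D synthase, averaged 114 ± 6.01 FPKM in testis and 17.2 ± 4.57 FPKM in ovary. The protease inhibitors serpine2 (log2 change -2.04 ± 0.10) and timp2b (log2 change -2.76 ± 0.18), of a kind that acts at the follicle wall, were lower in testis.

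Immediate early genes, which can respond to handling of tissue, had members on each side, with 19 of 40 tested higher and 11 lower. Of the 28 present in all 6 libraries 10 were higher and 10 lower, beside 35.5% and 48.7% over all such genes. jun averaged 38 ± 1.06 FPKM in testis and 10.7 ± 2.51 FPKM in ovary and socs3a, a cytokine signal inhibitor, 122 ± 21.4 FPKM in testis and 13.8 ± 1.47 FPKM in ovary, whereas mycb averaged 26.1 ± 1.97 FPKM in testis and 152 ± 8.54 FPKM in ovary.

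Matrix genes had members on each side. Of 42 collagens tested 24 were higher and 7 lower in testis, but 16 qualified through testis alone, and of the 22 present in all 6 libraries 8 were higher and 3 lower. The basement membrane chains col4a1 and col4a2 were higher in testis (log2 changes 2.27 ± 0.23 and 1.90 ± 0.15), while a copy of COL4A3 had 0.57, 0.955 and 1.38 FPKM in testis and 37.5, 57 and 78 FPKM in ovary (log2 change -6.07 ± 0.36). The small proteoglycan dcn, decorin, averaged 105 ± 13.2 FPKM in testis and 7.98 ± 0.975 FPKM in ovary, and sparcl1, a matricellular protein, 1.84 ± 0.747 FPKM in testis and 148 ± 32.8 FPKM in ovary.

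Claudins and connexins differed by member. Of 85 junction genes tested 43 were higher and 31 lower in testis, and of the 42 present in all 6 libraries 14 were higher and 19 lower. cldnd had 0.519, 1.78 and 0.678 FPKM in testis and 1053, 1078 and 955 FPKM in ovary (log2 change -10.08 ± 0.29, -10.88 without testis 2), opposite to the Sertoli claudin cldn11a. The gap junction gene cx32.3 averaged 135 ± 19.8 FPKM in testis and 20.3 ± 8.18 FPKM in ovary, a copy of GJC1 47.9 ± 2.04 FPKM in testis and 0.539 ± 0.215 FPKM in ovary, and cx35.4 1.41 ± 0.582 FPKM in testis and 59.6 ± 0.817 FPKM in ovary. Of 49 muscle and actin genes tested 23 were higher and 18 lower, and of the 29 present in all 6 libraries 8 were higher and 13 lower, with ACTA1 at 604, 691 and 860 FPKM in testis and 254, 179 and 217 FPKM in ovary and ACTB, which overlaps another gene, at 56.9, 51.7 and 39.9 FPKM in testis and 585, 589 and 579 FPKM in ovary. Among channels, the water channel aqp1a.2 had 1.01, 1.13 and 1.49 FPKM in testis and 462, 449 and 451 FPKM in ovary (log2 change -8.73 ± 0.14), and subunits of the vacuolar proton pump pointed both ways, atp6v0d1 higher (log2 change 1.88 ± 0.08) and atp6v1e1b lower (log2 change -1.41 ± 0.11) in testis.

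Motors and carriers had both kinds of member, beside 35.5% higher and 48.7% lower in testis over all genes present in all 6 libraries. Of 62 kinesin and cytoplasmic dynein genes tested 33 were higher and 26 lower in testis, and of the 48 present in all 6 libraries 21 were higher and 24 lower. dync1i2b, a dynein intermediate chain whose gene overlaps another, had 105, 111 and 108 FPKM in testis and 0.494, 0.505 and 0.824 FPKM in ovary, and its paralogue dync1i2a had 46.2, 48.1 and 50.9 FPKM in testis and 64.7, 60.1 and 60.7 FPKM in ovary. Of 130 amino acid, nucleotide and metal transporters tested 50 were higher and 62 lower, and of the 93 present in all 6 libraries 26 were higher and 52 lower. slc43a3a, a purine base transporter in mammals, had 80.1, 68.7 and 60.6 FPKM in testis and 0.288, 0.347 and 0.292 FPKM in ovary (log2 change 7.61 ± 0.18), and slc25a33, a mitochondrial pyrimidine carrier, 36.5, 37.7 and 37 FPKM in testis and 170, 155 and 145 FPKM in ovary (log2 change -2.26 ± 0.08). Of 202 aquaporins and ion transporters tested 98 were higher and 86 lower, and of the 108 present in all 6 libraries 35 were higher and 58 lower. Of 73 P450 and conjugation enzymes tested 34 were higher and 23 lower, and of the 49 present in all 6 libraries 19 were higher and 17 lower. gstm.1, a glutathione transferase, averaged 46.1 ± 1.92 FPKM in testis and 284 ± 13.9 FPKM in ovary, and a copy of gstr 160 ± 14.7 FPKM in testis and 65.3 ± 7.3 FPKM in ovary.

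Markers of blood and other cell types moved with the gonad to different degrees. All 11 erythrocyte genes tested passed, 10 of them higher in testis and qualifying through testis alone, with sums of 39.2 to 54.8 FPKM in testis and 12.3 to 12.7 FPKM in ovary. alas2, the erythroid enzyme of haem synthesis, had 5.16, 10.6 and 4.74 FPKM in testis and 0.504, 1.37 and 0.667 FPKM in ovary. None of these 11 was present in all 6 libraries. Of 20 endothelial genes tested 12 were higher and 5 lower, at low levels, and of the 9 present in all 6 libraries 4 were higher and 4 lower. Of 70 leukocyte and cytokine genes 25 were higher and 28 lower, and of the 37 present in all 6 libraries 10 were higher and 18 lower. The leukocyte list's sum of 875 to 998 FPKM in testis and 1882 to 2040 FPKM in ovary included on the ovary side il12ba, listed as an interleukin subunit, with 1.94, 2.99 and 3.06 FPKM in testis and 957, 879 and 849 FPKM in ovary. Of the leukocyte markers, ptprc did not pass, with 7.81, 8.99 and 7.2 FPKM in testis and 2.78, 4.84 and 6.57 FPKM in ovary, though it passed without ovary 3 (log2 change 0.89). lcp1 was lower in testis with overlapping values, 10.1, 10.3 and 12.3 FPKM in testis and 9.45, 15.9 and 19.9 FPKM in ovary (log2 change -0.65), and that call was lost without ovary 2 (-0.62), ovary 3 (-0.39), testis 1 (-0.60) or testis 2 (-0.60). The exocrine pancreas marker cpa1 had 28, 33.6 and 41.8 FPKM in testis and 0.615, 0.637 and 0.736 FPKM in ovary, and the other pancreas marker, try, averaged 1.92 ± 0.408 FPKM in testis and 0.243 ± 0.172 FPKM in ovary. Of 4 genes tested in the wider list of pancreas and intestine markers, 2 were higher and 2 lower in testis. The 1 present in all 6 libraries was lower. That list had overlapping sums, 46.2 to 60.4 FPKM in testis and 27.1 to 50.4 FPKM in ovary. The 2 interrenal markers, th and cyp21a2, summed to 0.223 to 0.729 FPKM in testis and 0.557 to 1.14 FPKM in ovary, near 0 in both. In the wider list of interrenal, kidney and chromaffin markers, 4 of 6 genes tested were higher in testis and 0 lower. These 4 qualified through testis alone, and the 2 present in all 6 libraries did not pass. That list summed to 30.6 to 31.9 FPKM in testis and 7.88 to 9.72 FPKM in ovary. The part of other cell types in these differences was not tested.

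Some of the largest changes fell on genes not yet described. Among the 15 largest on the testis side were ccdc114, a docking protein of outer dynein arms, with 66.5, 63.4 and 71.9 FPKM in testis and 0, 0.0422 and 0.0763 FPKM in ovary (log2 change 10.35 ± 0.29, 11.25 without ovary 3) and ccdc40, a ruler protein of the axoneme (44.5 ± 0.54 FPKM in testis, 0.0384 ± 0.0446 FPKM in ovary). The protease gene tmprss12, needed for male fertility in mice, had 137, 120 and 100 FPKM in testis and 0.107, 0 and 0.0614 FPKM in ovary. nek12, ccdc172 and twist2, a mesenchymal transcription factor, had no count in ovary and were at least 2376-fold, 1053-fold and 524-fold higher in testis. On the ovary side, a copy of CA4, a carbonic anhydrase, had no count in testis and 30.3, 30.7 and 27.3 FPKM in ovary, at least 1810-fold lower in testis. s100a1, a calcium-binding protein, had 0.102, 0.531 and 0.529 FPKM in testis and 389, 385 and 366 FPKM in ovary.

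The most abundant genes of testis were mainly ribosomal proteins, tubb2b and genes without a symbol. Of the latter, ENSONIG00000013697 had 1643, 1905 and 2604 FPKM in testis and 6.9, 5.56 and 5.67 FPKM in ovary. Another had a similar mean in both gonads and did not pass the test. The 10 most abundant genes of ovary included the nqo1 copy, apoeb, fabp11b, rbp7b and fth1a, and si:ch211-14a17.7, a gene of unnamed function with 1.11, 2.18 and 1.99 FPKM in testis and 2041, 1774 and 1843 FPKM in ovary. ppiaa, cyclophilin A, was in the ovary list and close to that level in testis (1431, 1320 and 1271 FPKM in testis, 1536, 1739 and 1706 FPKM in ovary, log2 change -0.49 ± 0.09).

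The sex difference was also fitted in the gonads of SF1-suppressed fish, which share no library with the controls. There 14189 genes were tested, 5853 (41.3%) higher and 5657 (39.9%) lower in testis. Of the 11927 control calls that were tested in both, 10383 (87.1%) passed in the same direction and 137 in the opposite one, and of the 4777 at least 4-fold genes 4653 (97.4%) passed in the same direction. The size of the sex difference itself differed between suppressed and control fish for 2381 of 15382 genes (15.5%), as an interaction in edgeR.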

How the data were processed

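Total RNA was extracted with TRIzol and sequenced with standard Illumina libraries, per the labels' protocols. The submitters' processing notes name HISAT and StringTie and give no version. Genome build, annotation release and strand setting: not given in the sources used here. Scaffold positions are therefore not printed. The deposited table holds expected counts, which the authors estimated for each gene and which are whole numbers used without change, and FPKM computed by the authors, with 0.0001 for an FPKM of 0. The 2070 genes whose symbol is shared by several copies are called copies, and 2673 genes overlap another gene, so their reads are less certain.

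Genes that reached an FPKM of 1 in 3 or more of the 6 control libraries were tested with edgeR 4.0.16 in R 4.3.3 (quasi-likelihood F test, TMM scaling, no covariate), with Benjamini-Hochberg adjustment over all 14719 genes and a threshold of 0.05. The standard error is the log2 change divided by the square root of F. For a group with no count, folds are bounds against 3 counts over the group, which cover counting error only. On simulated counts the script recovered 100 of 100 genes changed 2-fold and 100 of 100 changed 4-fold, with 11 false calls. The simulation left nearly all of the 14719 genes unchanged and set a smaller spread than these replicates showed. It therefore checks the script only, and does not cover a comparison in which most genes differ. DESeq2 1.42.0 and limma 3.58.1 on log2(FPKM + 1) and log2(FPKM + 0.1) were run beside it, with other scalings, filters, a replicate block and each library left out. Sex differences of suppressed gonads and the interaction used the same test.

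The comparison, the 55 gene lists and the markers were chosen with earlier results of these data known, and list members were picked by symbol. Lists are described by counts and medians, with no test. Genes are named by a rule. It takes the 15 largest called changes in each direction among genes with a symbol. These also needed testis and ovary values that did not overlap and a mean of at least 20 FPKM in the higher gonad. Genes overlapping another gene of the table were not left out. To these are added preset key genes of sex, steroids and germ cells and the 10 most abundant genes of each gonad. Each list gives up to 5 called genes a direction and 2 uncalled genes, by highest mean FPKM. Some genes that this rule picks are not reported here. The marker genes fga, ptprc, lcp1, th and cyp21a2 are named as markers, and the pairs in the closing section were chosen after their values were seen. The 6 control libraries held 36.8 to 57.2 M counts, and errors are spreads between these libraries.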

Additional observations from a re-analysis of the deposited data

Results flagged for a closer look

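Of the 237 genes whose values are given in the report or below, leaving out the leukocyte markers, 50 had a sex difference whose size differed between SF1-suppressed and control fish (edgeR interaction on all 12 libraries, adjusted p under 0.05), beside 2381 of all 15382 genes tested (15.5%). The values are the log2 change of testis over ovary in suppressed fish minus that in control fish, so a positive value is a shift toward testis. Among genes of steroid synthesis and response the differences were 1.87 for star, 1.71 for cyp11c1, 1.64 for hsd11b2, 1.50 for hsd3b1, 3.14 for hsd17b1, 1.28 for cyp19a1a and -0.80 for paqr8. Among Sertoli and granulosa genes they were -1.46 for dmrt1, 2.38 for sox9a, -1.63 for tjp1b, -2.46 for clu and -3.05 for inhbaa. Among germ cell and oocyte genes they came to 1.71 for sycp3, 1.44 for dmc1, 0.66 for STAG3, -1.32 for dnd1, -0.53 for tdrd9, 2.79 for tbpl2 and -0.56 for vldlr. Lipid, yolk and iron handling genes gave 3.30 for apoa1a, 1.60 for apoeb, 3.00 for fabp11a, 0.74 for fabp11b, 2.14 for fabp1b.1, 1.05 for fabp7a, 0.52 for npc2, -0.45 for rbp7b, 1.68 for fth1a and 1.36 for ctsd. The remaining positive values were 0.44 for cbx5, 0.50 for ccna2, 0.70 for cdk2, 1.50 for eno4 and 0.66 for gstm.1, with 1.01 for hmox2a, 1.48 for mrpl32, 2.09 for the pdha1a copy that was lower in testis, 0.62 for psmf1, 1.59 for si:ch211-14a17.7 and 0.82 for tubb2b. The remaining negative values were -1.51 for ACTB, -0.56 for the GAPDH copy, -1.48 for cpa1, -1.36 for gapdh and -0.90 for ldha, with -6.64 for nek12, -0.63 for the pdha1a copy that was higher in testis, -1.54 for ptgdsb.1, -1.37 for pttg1 and -2.74 for socs3a. nek12 had no count in control ovary, so its fitted value depends on the prior count and is no measure of size. hsd17b1 and tbpl2 were nearly absent from control testis, and their control changes moved on leaving out 1 testis library. The sizes of their values are therefore uncertain. The suppressed libraries were not examined one by one here.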

How the results depend on the processing

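The counts of genes higher and lower in testis stayed within 1.5 times of the values above under all 16 alternatives, and so did the 4-fold counts except under limma on log2(FPKM + 1), which gave 1909 higher and 1468 lower genes, on a scale that understates the change of low genes. Leaving out 1 library gave 6248 to 6437 higher and 5947 to 6140 lower genes, with 3039 to 3170 and 2184 to 2257 of them at 4-fold. The median log2 change of all genes was 0.05 with TMM, 0.09 with median-of-ratios, 0.24 with total count and 0.35 with upper-quartile scaling, so genes with small changes depend on the scaling. Of 232 named genes that passed the test, the leukocyte markers left out, 230 passed with the same sign in every alternative. The exceptions were ctsd, given above, and ppiaa, which did not pass with upper-quartile scaling (-0.18). Leaving out 1 library moved the fold of some called genes by over 1.5 times beside those given above: log2 changes came to 9.52 for spata18 without ovary 2 (8.87 with all libraries), 11.31 for ccdc40 without ovary 3 (9.85), -10.45 for tbpl2 without testis 2 (-9.38), 11.50 for tmprss12 without ovary 1 (10.75), -13.39 and -7.47 for nr2e1 without testis 1 and 2 (-8.21), -7.78 for spaca4l without testis 2 (-7.05), 3.46 for try without ovary 3 (2.72) and -4.76 for wnt4a without testis 3 (-3.99). Of the named genes that did not pass, some changed sign. With limma on log2(FPKM + 1), limma on log2(FPKM + 0.1), total count and upper-quartile scaling, cyp11c1 came to 0.04, 0.04, 0.04 and 0.16, pcna to 0.03, 0.03, 0.04 and 0.16 and gata4 to 0.11, 0.17, 0.13 and 0.25. Without 1 library gata4 ran from -0.33 to 0.10 and rspo1 from -0.19 to 0.28. rspo1 came to -0.02 with the filterByExpr filter, -0.03 without a filter and -0.19 without testis 3. The marker lcp1 did not pass with limma (-0.38 and -0.40), total count (-0.46), upper-quartile scaling (-0.34) or all 12 libraries in the fit (-0.65), and ptprc passed with limma (0.70 and 0.82), DESeq2 (0.63), median-of-ratios (0.63), total count (0.76), upper-quartile scaling (0.88) and the replicate block (0.65). rpl3 passed with both limma settings, total count and upper-quartile scaling, DESeq2 and without testis 3. Of 1760 list counts compared, 1701 were within 1.5 times. The others included 24 higher DNA replication genes instead of 15 with upper-quartile scaling, 7 lower proteasome genes instead of 12 and 1 lower ribosomal protein gene instead of 3 with limma, total count or upper-quartile scaling, 3 lower endothelial genes instead of 5 with upper-quartile scaling, and 11 lower receptors instead of 7 without a filter. With the filterByExpr filter and without a filter there were 36 and 37 higher Fox, Sox, Gata and Dmrt factors instead of 23, 62 and 62 higher growth factor genes instead of 38, and 155 and 164 higher ion transporters instead of 98, since more genes were then tested. Deviations of testis and ovary libraries with the same replicate number were weakly correlated (-0.00256, -0.00608 and 0.0774 for numbers 1, 2 and 3). Libraries with different numbers gave -0.0458 to 0.046. With 3 libraries in each gonad, these values cannot decide whether the numbers pair the libraries. With the replicate block 6386 genes were higher and 6140 lower. At 36.8 to 57.2 M counts, genes under an FPKM of 1 in most libraries were left untested.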

Other observations

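Genes whose symbols differ only in a final a or b, the naming of many fish paralogues, were paired after the data had been seen, as a description. The table held 1446 such pairs, and 855 had both genes tested. In 212 pairs both genes were higher in testis and in 159 both were lower, together 43.4%. In 280 (32.7%) the genes pointed in opposite directions, and in 204 at least 1 gene did not pass the test. Of all genes tested 44.1% were higher and 42.3% lower, so opposite calls are also common between unrelated genes. Whether the pairs differ from unrelated genes in this was not tested. Both genes differed at least 4-fold in opposite directions in 45 pairs and in the same direction in 91. The symbol alone does not show that the genes of a pair are duplicates of 1 ancestor.

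Of the 45 pairs that differed at least 4-fold in opposite directions, 3 had a mean of at least 20 FPKM for both genes in the gonad where each was higher. rdh14b, a retinol dehydrogenase, averaged 31.6 ± 4.63 FPKM in testis and 6.36 ± 0.637 FPKM in ovary, and rdh14a, which overlaps another gene of the table, 12.4 ± 4.34 FPKM in testis and 62.8 ± 6.73 FPKM in ovary. ptbp1a, a splicing repressor, averaged 75.0 FPKM in testis and 8.63 FPKM in ovary, and ptbp1b 8.67 FPKM in testis and 30.7 FPKM in ovary. fam222ba averaged 22.2 FPKM in testis and 2.16 FPKM in ovary, and fam222bb 5.4 FPKM in testis and 87.3 FPKM in ovary.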
